A study of Drosophila melanogaster with 12 samples.

Results

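The 10 genes described here are TFAM and 9 nuclear genes whose products copy, transcribe or stabilize mitochondrial DNA and its RNA, or degrade TFAM. They were taken by name from the deposited expression table, in which they are 10 of 17139 genes and 12 of 34213 transcripts. All 10 were measured well above the filter on low values, so none was lost from the tests. Levels were read in fat bodies of Drosophila melanogaster larvae 96 h after egg laying, the larval organ of nutrient storage. The 6 control libraries carried the genotype r4-Gal4>WT and the 6 TFAM RNAi libraries the genotype r4-Gal4>TFAM RNAi. Both groups thus share r4-Gal4, a driver active mainly in the larval fat body, and the labels give the control as wild type, with no mention of a control hairpin.

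Mitochondrial DNA is held in nucleoids, where TFAM, a protein of the HMG-box family, bends and packages it. In the commonly described model, transcription starts when TFAM and mtTFB2 bring the mitochondrial RNA polymerase, PolrMT, to the DNA. This model was not tested here. Proteins of the mTERF family modulate where and how far transcription proceeds. Copying is done by polymerase gamma, made of a catalytic subunit, PolG1, and an accessory subunit, PolG2, together with a helicase and the mitochondrial single-stranded DNA-binding protein mtSSB. All these proteins are encoded in the nucleus and imported, and the deposited table held 0 mitochondrially encoded genes, so the output of mitochondrial DNA itself was not analysed here.

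Among the 10 genes, TFAM, mtTFB1, PolG2 and mTerf3 fell in TFAM RNAi fat bodies and 0 rose. TFAM was at 26.4% of its control mean, PolG2 at 42.2%, mTerf3 at 59.7% and mtTFB1 at 61.0%. The other 6, mtTFB2, mTerf5, mTTF, mtSSB, bsf and Lon, did not pass the test, with levels between 82.8% (mtTFB2) and 101% (mTTF) of control. A gene was called at a Benjamini-Hochberg adjusted p under 0.05 from limma on log2(TPM + 1) over the 9951 genes whose mean reached 1 TPM. TPM is the share of a transcript in the RNA of a library, corrected for transcript length and put on a common total. Of all genes tested, 13.8% were called lower and 5.75% higher, and the groups did not overlap for 13.3%. The median log2 fold change was -0.23 over the 10 genes and 0.01 over all genes tested. Under quantile normalization the balance of calls over all genes moved from 1377 lower and 572 higher to 1075 lower and 961 higher. Without the 4 libraries richest in other-tissue markers it was 1049 lower and 1137 higher. In both cases 4 of the 10 genes were called lower.

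**Figure D1:**
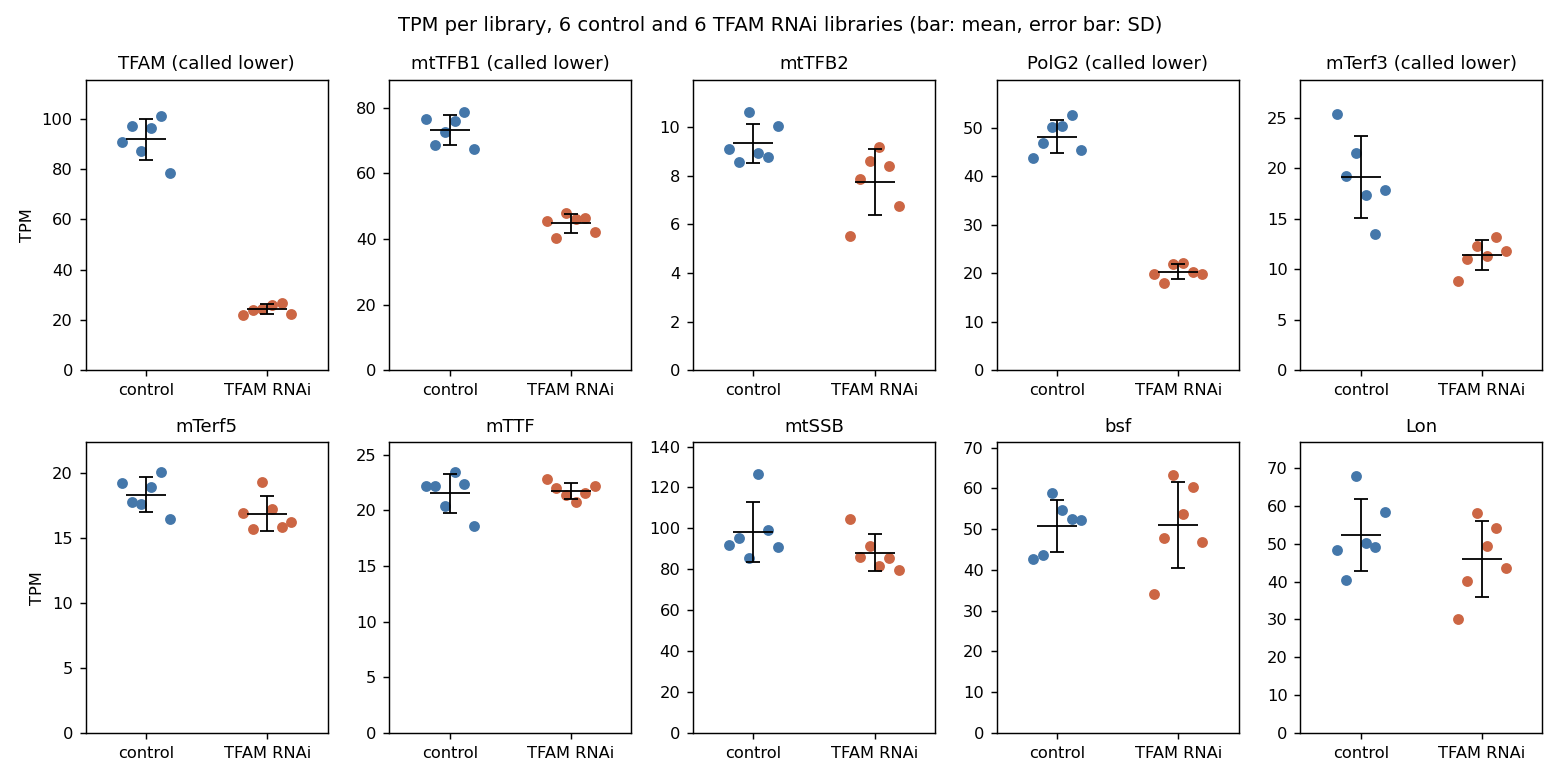
TPM of each of the 10 genes (vertical axis, starting at 0) in the 6 control and 6 TFAM RNAi libraries. Points are libraries, horizontal bars are means and error bars are SD; the points of the groups do not overlap for TFAM, mtTFB1, PolG2 and mTerf3, and overlap for the other 6.

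TFAM (FBgn0038805), the targeted gene, checks the labels. In the control libraries it ranged from 78.5 TPM through a median of 93.6 to 101 TPM, with a mean of 91.9 ± 8.21 (SD, n = 6). In the TFAM RNAi libraries it ranged from 22.1 through 24.2 to 26.9 TPM, with a mean of 24.2 ± 1.92 (SD, n = 6). Every TFAM RNAi library was thus below every control library, and single libraries held between 24% and 29.3% of the control mean. TFAM fell by 1.88 on the log2 scale (SE 0.08, 95% interval -2.04 to -1.71, limma adjusted p = 5.16e-09). It ranked 18 among the 9951 genes by p-value. In bulk tissue, fewer cells expressing a gene and less RNA per cell cannot be told apart. The labels do not say whether the libraries came from separate cultures or animals, so the p-values measure the spread between these libraries, which may be technical.

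Of the transcription factor B pair, mtTFB1 passed the test and mtTFB2 did not. mtTFB2 (FBgn0037778) is the initiation factor that opens the promoter for PolrMT, and mtTFB1 (FBgn0261381) is a methyltransferase of the small-subunit mitochondrial ribosomal RNA. mtTFB2 ranged from 8.58 through 9.01 to 10.6 TPM in control and from 5.53 through 8.12 to 9.20 TPM in TFAM RNAi. Of the 6 TFAM RNAi libraries, 4 were below the lowest control library and the other two lay within the control range. The log2 fold change was -0.26 (SE 0.12, 95% interval -0.51 to 0.00, limma adjusted p = 0.177).

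mtTFB1 ranged from 67.5 through 74.3 to 78.5 TPM in control and from 40.1 through 45.8 to 48.0 TPM in TFAM RNAi, without overlap. It fell by 0.70 on the log2 scale (SE 0.06, 95% interval -0.84 to -0.56, limma adjusted p = 5.33e-06). The deposited table gives mtTFB1 and Ccdc56, a gene of cytochrome c oxidase assembly, the same values in all 12 libraries, and the annotation gives them the same extent. The mtTFB1 result is therefore equally a result for Ccdc56. Within a library the ratio of mtTFB1 to mtTFB2 was 7.91 ± 0.923 in control and 5.94 ± 1.19 in TFAM RNAi (SD, n = 6 each), and its ranges overlapped.

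Among the 3 genes of the mTERF family, mTerf3 alone was called. mTerf3 (FBgn0037008) acts in mitochondrial transcription and in assembly of the mitochondrial ribosome. It ranged from 13.5 through 18.6 to 25.3 TPM in control and from 8.86 through 11.6 to 13.2 TPM in TFAM RNAi. The groups were separated by a narrow margin, between the lowest control library and the highest TFAM RNAi library. mTerf3 fell by 0.68 on the log2 scale (SE 0.14, 95% interval -0.99 to -0.38, limma adjusted p = 0.00329). It had the widest control spread of the 10 genes, with a coefficient of variation of 21% against 6.17% for mtTFB1.

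mTTF (FBgn0028530), which binds mitochondrial DNA and stops transcription at its sites, averaged 21.5 ± 1.74 TPM under control and 21.8 ± 0.716 TPM under TFAM RNAi (mean ± SD, n = 6 in both). The control libraries ranged from 18.6 through 22.2 to 23.5 TPM, and all 6 TFAM RNAi libraries, from 20.7 through 21.8 to 22.8 TPM, lay inside that range. The log2 fold change was 0.02 (SE 0.07, 95% interval -0.13 to 0.17, limma adjusted p = 0.893). mTerf5 (FBgn0038584), a family member that acts in mitochondrial transcription, ranged from 16.4 through 18.3 to 20.1 TPM in control and from 15.7 through 16.6 to 19.3 TPM in TFAM RNAi. Its log2 fold change was -0.11 (SE 0.08, 95% interval -0.28 to 0.05, limma adjusted p = 0.383). For both genes the interval leaves out a fall as large as that of mTerf3. Within a library, mTerf3 stood at 1.05 ± 0.23 of mTerf5 in control and at 0.68 ± 0.103 in TFAM RNAi, and at 0.895 ± 0.201 and 0.526 ± 0.0771 of mTTF (SD, n = 6 each). Both ratios overlapped between the groups.

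Of the replication factors, PolG2 passed the test and mtSSB did not. PolG2 (FBgn0004407), the accessory subunit that raises the processivity of polymerase gamma, ranged from 43.7 through 48.5 to 52.8 TPM in control and from 18.0 through 20.1 to 22.2 TPM in TFAM RNAi. The highest TFAM RNAi library held 45.9% of the control mean, and no library overlapped. PolG2 fell by 1.21 on the log2 scale (SE 0.07, 95% interval -1.36 to -1.05, limma adjusted p = 1.17e-07). PolG2 has the same values and the same extent as GatC, which encodes a subunit of the mitochondrial amidotransferase that charges glutamine tRNA, so the result holds equally for GatC.

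Its partner PolG1, the catalytic subunit, ranged from 3.49 through 4.62 to 5.08 TPM in control and from 4.14 through 5.02 to 6.61 TPM in TFAM RNAi. It did not pass the test (log2 fold change 0.18, SE 0.14, limma adjusted p = 0.454). The ratio of PolG2 to PolG1 within a library ranged from 9.5 to 13.4 in control and from 3.24 to 4.78 in TFAM RNAi. By deposited values, this ratio was therefore lower in every TFAM RNAi library than in any control library. The values of PolG2 are equally those of GatC, and the fall of PolG2 enters the ratio, so it is given as a description.

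mtSSB (FBgn0010438), which coats the exposed strand during copying, had the highest deposited mean of the 10 genes in both groups. It ranged from 85.6 through 93.7 to 127 TPM in control and from 79.6 through 85.6 to 105 TPM in TFAM RNAi. The groups overlapped, and control replicate 6 stood above the other 11 libraries. The log2 fold change was -0.15 (SE 0.10, 95% interval -0.36 to 0.06, limma adjusted p = 0.36), and it was 0.05 under quantile normalization. mtSSB to TFAM within a library was 1.07 ± 0.138 in control and 3.66 ± 0.583 in TFAM RNAi (SD, n = 6 each), without overlap. The fall of TFAM enters this ratio, so it is given as a description.

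bsf (FBgn0284256), the fly relative of mammalian LRPPRC, is known to stabilize mitochondrial messenger RNAs. It ranged from 42.7 through 52.3 to 58.9 TPM in control and from 34.0 through 50.6 to 63.3 TPM in TFAM RNAi. The TFAM RNAi libraries held both the lowest value, in replicate 3, and the highest, in replicate 5. The log2 fold change was -0.01 (SE 0.14, 95% interval -0.32 to 0.30, limma adjusted p = 0.97), and its sign changed under quantile normalization.

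Lon (FBgn0036892) encodes the ATP-dependent protease of the mitochondrial matrix, which degrades TFAM protein in Drosophila cells. It ranged from 40.3 through 49.6 to 67.9 TPM in control and from 30.2 through 46.5 to 58.2 TPM in TFAM RNAi, with wide overlap. The log2 fold change was -0.20 (SE 0.16, 95% interval -0.55 to 0.15, limma adjusted p = 0.478), and it was 0.02 under quantile normalization. The transcript ratio of Lon to TFAM was 0.579 ± 0.147 in control and 1.89 ± 0.343 in TFAM RNAi (SD, n = 6 each), without overlap. Lon was thus the scarcer of the pair in every control library and the more abundant in every TFAM RNAi library. The fall of TFAM enters this ratio too, so it is given as a description.

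**Figure D2:**
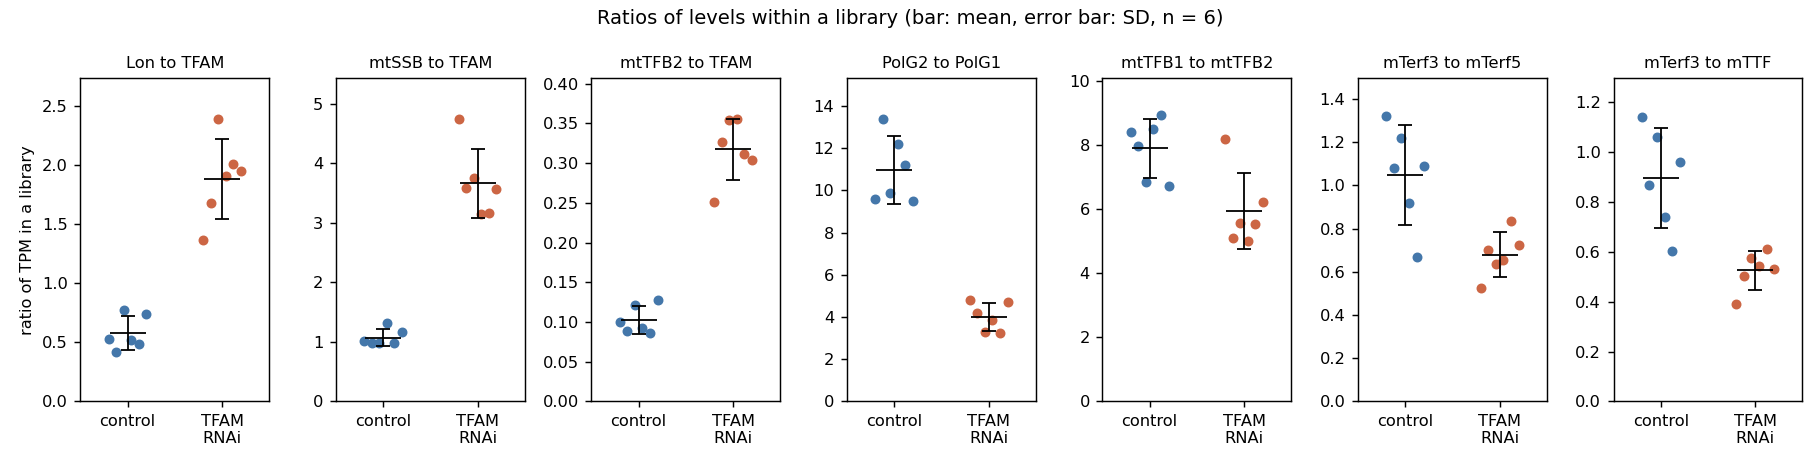
Ratios of TPM within a library (vertical axis, starting at 0) for 7 gene pairs in the 6 control and 6 TFAM RNAi libraries. Points are libraries, bars are means and error bars are SD. Lon to TFAM, mtSSB to TFAM, mtTFB2 to TFAM and PolG2 to PolG1 do not overlap between the groups. The fall of TFAM enters each ratio to TFAM, and the fall of PolG2 enters PolG2 to PolG1.

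TPM are per length, so the deposited values can be put in order. mtTFB1 shares its values with Ccdc56 and PolG2 with GatC, and how reads were divided between such genes is unknown. The ranks and percentiles of mtTFB1 and PolG2 below are therefore those of deposited values, and their transcript levels cannot be placed against the other genes. In control libraries mtSSB and TFAM led at means of 98.3 and 91.9 TPM and overlapped. The deposited value of TFAM was above that shared by mtTFB1 and Ccdc56 in all 6 libraries, although their ranges overlapped. Lon, bsf and PolG2 followed at 52.4, 50.8 and 48.2 TPM, and these deposited values could not be separated. The deposited value of PolG2 was above that of mTTF without overlap, and mTTF, mTerf3 and mTerf5 formed a group between 18.4 and 21.5 TPM. mtTFB2 was last at 9.34 TPM, without overlap with mTerf5. In TFAM RNAi libraries mtSSB stood alone at 88.0 TPM, and bsf, Lon and mtTFB1 followed between 44.7 and 51.0 TPM. TFAM had moved below these 3 genes without overlap, and its range now overlapped those of mTTF and PolG2. mTerf5 lay below TFAM and mTTF without overlap. Among all genes tested, TFAM moved from the percentile 86.9 of mean level in control to 70.3 in TFAM RNAi, and PolG2 from 79.5 to 66.7.

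**Figure D3:**
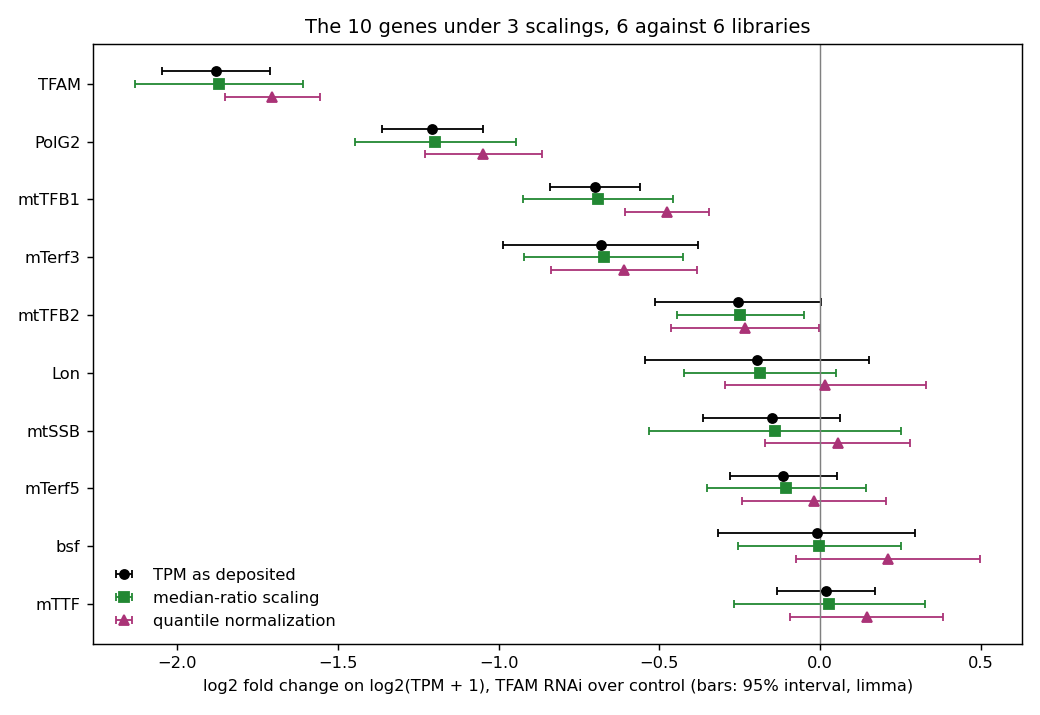
Log2 fold change, TFAM RNAi against control, of log2(TPM + 1) values (horizontal axis) for the 10 genes under the deposited TPM, median-ratio scaling and quantile normalization. Symbols are limma estimates from 6 against 6 libraries and bars are 95% intervals; TFAM, PolG2, mtTFB1 and mTerf3 lie below 0 under all 3, while mtSSB, bsf and Lon change sign under quantile normalization.

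TFAM and Lon are the 2 genes with more than 1 transcript in the table, and both TFAM transcripts fell. NM_079691 went from 58.8 ± 6.78 to 16.5 ± 1.57 TPM and NM_169906 from 33.1 ± 4.25 to 7.75 ± 1.43 TPM (SD, n = 6 each). The first fell by 1.77 (SE 0.10, limma adjusted p = 4.74e-08) and the second fell by 1.97 (SE 0.13, limma adjusted p = 2.75e-07) on the log2 scale. In all, 5 of the 12 transcripts were called lower and 0 higher, where 11.8% of the 15248 transcripts tested were called lower and 5.47% higher. NM_079691 made up 64% ± 3.94 of TFAM in control and 68.1% ± 4.9 in TFAM RNAi (SD, n = 6 each). The log2 ratio of this transcript to the other transcript changed by 0.20 (95% interval -0.14 to 0.54, limma adjusted p = 0.544).

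Of the Lon transcripts, NM_168806 is the less abundant. Its share of Lon ranged from 12.2% to 15.7% in control, with a mean of 13.6% ± 1.25 (SD, n = 6). In TFAM RNAi the share ranged from 15.5% to 22.6%, with a mean of 18.5% ± 2.48 (SD, n = 6). The ranges touched only where control replicate 2 exceeded TFAM RNAi replicate 6. The log2 ratio of NM_168806 to NM_140876 rose by 0.50 (SE 0.12, 95% interval 0.24 to 0.75, limma adjusted p = 0.0185), where 9.5% of 9344 such ratios were called. The alternatives were run on the inverse ratio, NM_140876 to NM_168806 (limma adjusted p = 0.0161 with all 12 libraries). Its call was lost with an exact rank-sum test (adjusted p = 0.0525) and with a block for replicate number in 10 libraries (limma adjusted p = 0.0715). It was also lost without the 4 libraries with most other-tissue marker RNA (limma adjusted p = 0.0755). Without those libraries the log2 ratio of NM_140876 to NM_168806 was -0.56, against -0.50 with all 12, so its size was not smaller. Neither transcript passed the test by its level. NM_168806 averaged 7.09 ± 1.41 TPM across controls and 8.49 ± 2.24 TPM across TFAM RNAi libraries (limma adjusted p = 0.47), and NM_140876 at 45.3 ± 8.28 and 37.5 ± 8.41 TPM (limma adjusted p = 0.313). In the authors' deposited table the technical variance was 0.0401 for NM_168806 and 0.0014 for NM_140876, on the squared natural-log scale, so the less abundant transcript is the less precisely estimated. Lon also overlaps CG9372, which fell from 82.0 ± 9.04 to 46.0 ± 2.97 TPM (limma adjusted p = 9.96e-06), and how the counting divided reads of overlapping genes was not given in the sources used here.

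**Figure D4:**
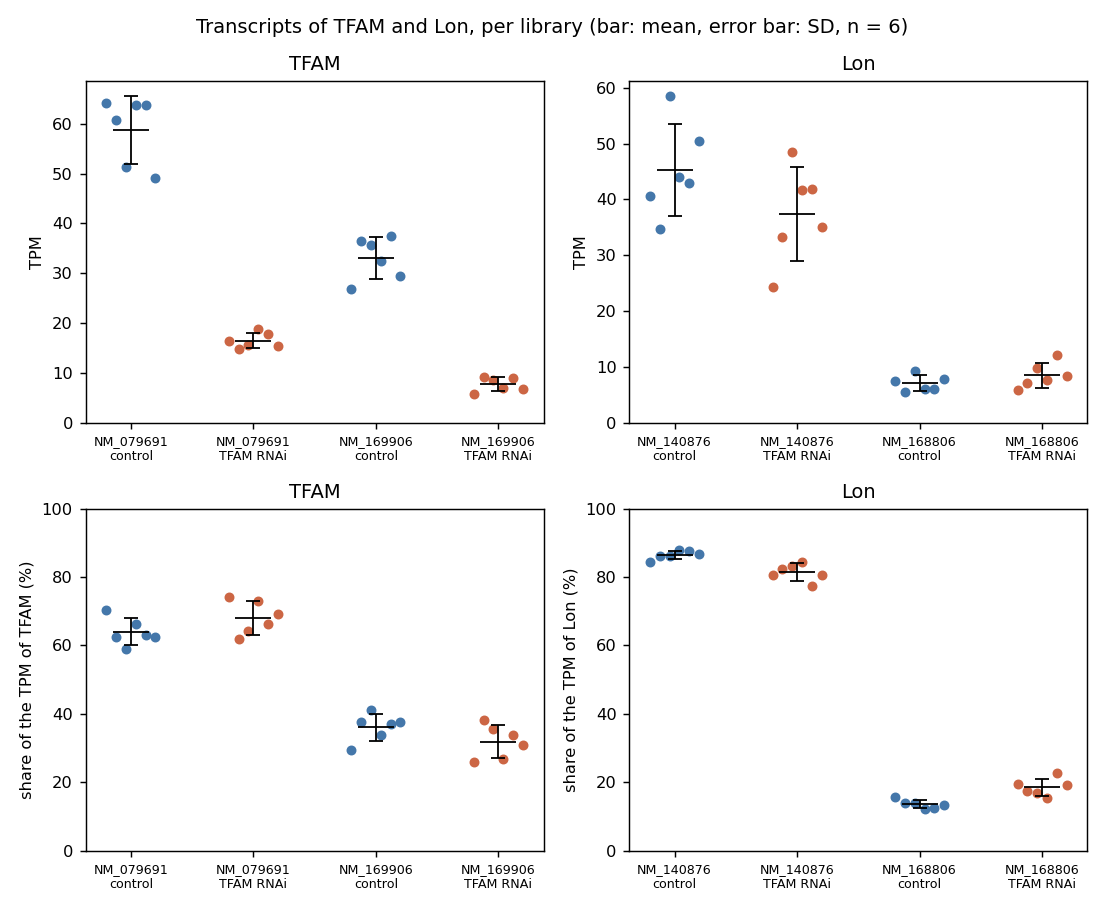
TPM (upper panels) and share of the gene's TPM in percent (lower panels) of the transcripts of TFAM and Lon in the 6 control and 6 TFAM RNAi libraries. Points are libraries, bars are means and error bars are SD; both TFAM transcripts are lower in every TFAM RNAi library, and NM_168806 makes up 12.2% to 15.7% of Lon in control and 15.5% to 22.6% in TFAM RNAi.

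The authors' deposited tables called the same 4 genes. In the authors' deposited table of Wald tests the log2-converted coefficients were -1.82 and -2.10 for the TFAM transcripts (q = 3.37e-29 and 1.01e-27). For PolG2 the authors' deposited table gave -1.25 (q = 4.53e-16), for mtTFB1 -0.71 (q = 8.66e-06) and for mTerf3 -0.73 (q = 0.00156). For the transcripts of the other 6 genes the q-values in the authors' deposited table lay between 0.243 (Lon, NM_140876) and 0.987 (bsf). The authors' deposited table of 1561 genes past their likelihood ratio test also held these 4 genes, PolG2 under the name DNApol-gamma35, and none of the other 6.

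The wider machinery was described by 38 tested genes of 6 lists, of which 7 fell and 0 rose, with a median log2 fold change of -0.08. The share called lower is near the 13.8% over all genes tested, against 5.75% called higher, so the counts of these lists are given as a description. They are 2 of 6 replication and repair enzymes, 1 of 10 genes of RNA polymerase and RNA processing, 1 of 8 translation factors, 3 of 4 genes of nucleotide supply, 0 of 5 nucleoid-associated membrane proteins and ClpXP subunits, and 0 of 5 nuclear regulators. Under quantile normalization the median of the 38 genes was 0.08, and 3 were called lower and 2, rnh1 and ClpP, higher.

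EndoG, a mitochondrial nuclease, ranged from 25.1 through 29.9 to 32.1 TPM in control and from 16.6 through 18.2 to 22.9 TPM in TFAM RNAi. It fell by 0.61 on the log2 scale (SE 0.09, limma adjusted p = 3.42e-04) without overlap between the groups. dnk, the deoxynucleoside kinase of the fly, ranged from 40.7 through 44.8 to 51.5 TPM in control and from 27.5 through 32.0 to 34.6 TPM in TFAM RNAi. It fell by 0.49 (SE 0.08, limma adjusted p = 5.17e-04), also without overlap. EndoG and dnk were called lower under every alternative tried.

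The other 5 calls had overlapping groups. Rim2, a carrier of pyrimidine nucleotides into mitochondria, fell by 0.49 (SE 0.15, adjusted p = 0.0393), and RnrL, the large subunit of ribonucleotide reductase, by 0.44 (SE 0.14, adjusted p = 0.0433). RnrS, the small subunit, did not pass the test (49.8 ± 4.24 and 45.5 ± 2.13 TPM, adjusted p = 0.255). DNAlig3, a DNA ligase, fell by 0.39 (SE 0.11, adjusted p = 0.0234), and MTPAP, the mitochondrial poly(A) polymerase, by 0.31 (SE 0.10, adjusted p = 0.0421). mEFTs, an elongation factor of mitochondrial translation, fell by 0.28 (SE 0.07, adjusted p = 0.0114). Of the 25 alternatives, 21 kept the call of DNAlig3, 21 that of mEFTs, 13 that of Rim2, 12 that of RnrL and 9 that of MTPAP.

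PolrMT, mtDNA-helicase and srl did not pass the test. PolrMT, the mitochondrial RNA polymerase, averaged 7.79 ± 1.31 TPM across controls and 8.72 ± 2.4 TPM across TFAM RNAi libraries (SD, n = 6 each), with a log2 fold change of 0.12 (95% interval -0.26 to 0.50, limma adjusted p = 0.706). The replicative helicase, mtDNA-helicase, was at 5.03 ± 0.676 and 4.29 ± 0.449 TPM (log2 fold change -0.19, limma adjusted p = 0.307). srl, the fly PGC-1 relative and a coactivator of mitochondrial genes, was at 19.8 ± 6.69 and 23.9 ± 8.9 TPM (log2 fold change 0.22, limma adjusted p = 0.689).

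**Figure D5:**
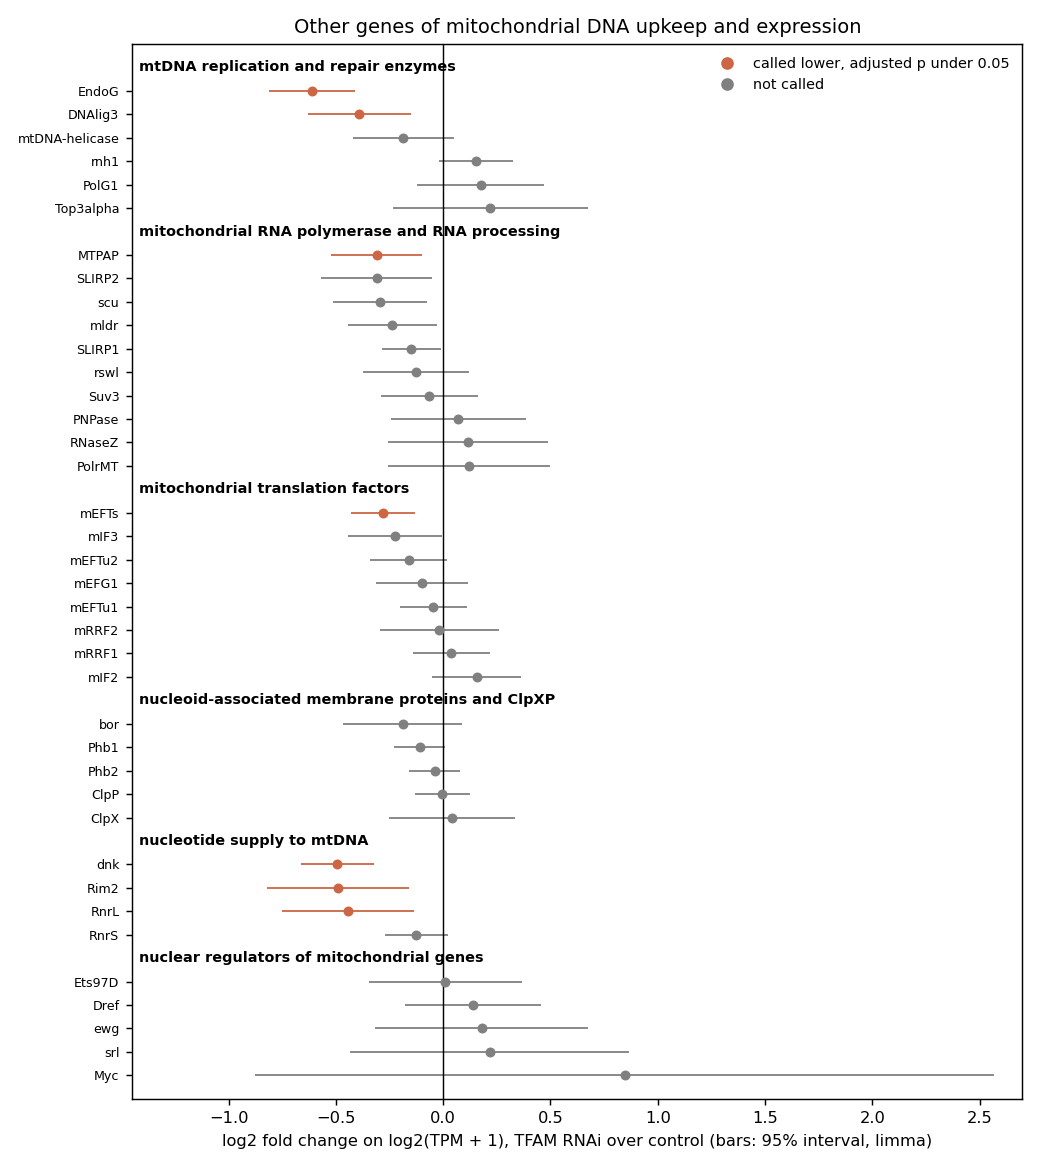
Log2 fold change, TFAM RNAi against control, of log2(TPM + 1) values (horizontal axis) for 38 further genes in 6 lists. Points are limma estimates from 6 against 6 libraries, bars are 95% intervals and coloured points passed the test; the 7 called genes, EndoG, DNAlig3, MTPAP, mEFTs, dnk, Rim2 and RnrL, were all lower.

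Within the groups the 10 genes did not vary as a single block. After centring log2(TPM + 1) in each group, bsf and Lon had a Pearson r of 0.92 over the 12 libraries, mtTFB2 and Lon 0.872, and mtTFB2 and bsf 0.834. Without TFAM RNAi replicate 3 these were 0.856, 0.763 and 0.635 over 11 libraries. TFAM itself had an r of 0.0675 with Lon, 0.23 with mtTFB2, 0.454 with PolG2, 0.513 with mtTFB1 and -0.0191 with mTerf3. Without TFAM RNAi replicate 3 the r of TFAM was -0.237 with Lon and -0.066 with mtTFB2. Libraries share their scaling in these values, so the correlations are descriptive. TFAM RNAi replicate 3 was the lowest of its group for 5 of the 10 genes (TFAM, mtTFB2, mTerf3, bsf and Lon) and the highest for mTTF and mtSSB. TFAM RNAi replicate 4 was the lowest for mtTFB1, PolG2 and mTerf5.

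Among the 6951 genes averaging 5 TPM or more, the patterns over the 12 libraries most like that of TFAM were those of galla-1 (Pearson r 0.997), CtsL1 (0.995), Chi (0.995), CG43133 (0.995) and CG14752 (0.994). All 5 were lower in TFAM RNAi, galla-1 at means of 684 and 62.4 TPM and CtsL1, a cathepsin L protease, at 709 and 151 TPM. This likeness is mostly the difference between the groups. After centring within groups the highest r with TFAM belonged to other genes, r-l (0.928), spidey (0.915), CG17036 (0.909), Past1 (0.896) and CG32795 (0.893). Of the 10 genes, PolG2 had an r of 0.99, mtTFB1 of 0.98 and mTerf3 of 0.832 with TFAM over the 12 libraries. Centred within groups these were 0.454, 0.513 and -0.0191.

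Fat body markers were abundant in every library, and the summed markers of 3 other tissues did not overlap between the groups. The 10 fat body markers summed to between 86100 and 116000 TPM in control and between 80300 and 90500 TPM in TFAM RNAi. The 6 hemocyte markers summed to 80.2 to 257 TPM in control and 12.6 to 32.1 TPM in TFAM RNAi, the 5 ring gland markers found to 42.8 to 74.2 and 0.199 to 6.4 TPM, and the 3 of Malpighian tubule and oenocyte to 619 to 972 and 284 to 554 TPM. The 6 nervous system markers ran the other way, from a median of 26 TPM (22.5 to 29.7) in control to 31.5 TPM (29.1 to 35.6) in TFAM RNAi, with overlap. Markers of gut, muscle, epidermis and trachea, and testis overlapped widely, the last with medians of 87.5 and 131 TPM. Salivary gland markers summed to at most 4 TPM in control and reached 1108 TPM in TFAM RNAi replicate 3. No marker was at 0 in every library. The part of these tissues in the falls of mtTFB1, PolG2 and mTerf3 was not tested. The 4 libraries highest in markers of other tissues were replicates 2 and 3 of the control and replicates 3 and 4 of TFAM RNAi, at 5097 to 9201 TPM summed. Without them TFAM, mtTFB1 and PolG2 had log2 fold changes of -1.82, -0.68 and -1.20. mTerf3 had -0.48 and an adjusted p of 0.0412 by gene and 0.0556 by transcript, so its transcript call was lost.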

How the data were processed

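Per the labels' protocols, Trizol RNA of dissected fat bodies was prepared with a directional library kit. The authors deposited TPM per transcript for 12 libraries, and sleuth is named, without a version, in the submitters' processing notes. Which program quantified the reads, and on which build, is not given in the sources used here. Since TPM carry no read numbers, sequencing depth is unknown and counting error cannot be stated. From the authors there are also deposited p-values and q-values (Wald and likelihood ratio tests), Wald coefficients on a natural log scale (slope 0.999 on the natural-log difference of TPM over 1498 transcripts above 50 TPM) and a technical variance, used here as a score of precision as the authors deposited it.

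RefSeq accessions of transcripts were matched to gene symbols in a RefSeq table (assembly Release 6 plus ISO1 MT; 34092 of 34213, 99.65%), and TPM were summed per gene. limma 3.58.1 in R 4.3.3 (lmFit, eBayes with trend) was fitted to log2(TPM + 1) for features with a mean of at least 1 TPM, without a block; p-values are two-sided and adjusted over all features tested. Fold changes on this scale understate those of low genes. The tests were checked on simulated data. The 10 genes and all lists were chosen with earlier results of these data known. The text names by rule all 10 genes, genes with the same values, 7 ratios, the listed genes that passed the test and the 5 genes most like TFAM by each measure; overlapping and flanking genes and listed genes that did not pass were named after their values were seen. Alternatives varied the pseudocount, filter, scaling, test, weights, block and libraries. Replicate numbers 3, 5, 6, 7 and 8 occur in both groups and were not taken as pairs. 0 columns of per-sample values were left out.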

Additional observations from a re-analysis of the deposited data

Results flagged for a closer look

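mtSSB in control replicate 6 stood at 127 TPM, apart from the other 5 control libraries, which lay between 85.6 and 99 TPM. The gap was 0.673 of the range of the group, above Dixon's critical value for a group of that size. It was 1 of 42 groups examined, and chance alone gives about 1 in 20. The same library was also the highest control library for mTTF.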

How the results depend on the processing

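TFAM, mtTFB1, PolG2 and mTerf3 were called lower under all 25 alternatives, with log2 fold changes of -1.92 to -1.70, -0.72 to -0.48, -1.24 to -1.05 and -0.77 to -0.48. The highest adjusted p of mTerf3 was 0.0412. mtSSB was called with array weights only (adjusted p = 0.0212), a setting under which 4648 genes were called in place of 1949. Signs of uncalled genes changed. mTTF was -0.0347 with array weights and -0.0207 to 0.0431 with each library left out. mtSSB was 0.0541, bsf 0.211 and Lon 0.0162 under quantile normalization. bsf was 0.0812 with array weights, 0.0305 without the 4 libraries richest in other-tissue markers (chosen after seeing the data) and -0.0785 to 0.0968 with each library left out. Of the wider genes, 4 were called lower with no filter, 4 with median-ratio scaling, 3 with quantile normalization, 12 with array weights and 3 to 7 with each library left out; the lowest count came without TFAM RNAi replicate 4 or 8, and 4 without control replicate 3, 5, 6 or 7. Called higher were 2 with quantile normalization and 4 with array weights. The cause of these changes was not tested. The Lon isoform ratio gave 0 calls with the exact rank-sum test, the replicate block and without the marker-rich libraries, and 1 call under the other 20 alternatives.

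Of 5 number pairs, 2 had deviations correlated above 0.1 (range -0.0768 to 0.616), and 2 of 5 controls correlated best with their own number. Whether samples with the same number share more than the number cannot be told from these values. With the replicate block, 10 libraries gave 2510 calls over all genes, 1168 lower and 1342 higher (1987 without it, a fit added after seeing the data), the same 4 of the 10 genes were called lower, and the Lon ratio had an adjusted p of 0.0715 (0.0244 without the block). TPM carry no depth, so the precision of low values cannot be stated.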

Other observations

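Some of the listed genes varied together between libraries of the same group, among them the regulators Dref and Myc. These genes were picked after their values were seen, and the correlations are descriptive over 12 libraries centred within groups. bsf had a Pearson r of 0.971 with PolrMT, 0.969 with PNPase, an RNA-degrading exonuclease, 0.984 with bor, an ATPase of the ATAD3 family, and 0.88 with srl. Lon had 0.974 with PolrMT and 0.958 with Dref, a regulator of replication genes. TFAM RNAi replicate 3 was the lowest of its group for bsf, Lon, PolrMT, PNPase, bor, srl and Dref. These correlations include that library. TFAM had 0.339 with bsf and 0.0675 with Lon. Other listed genes also had low values with bsf, such as mEFTu1 at 0.119 and ClpP at 0.0254. SLIRP2, a relative of the partner of LRPPRC, ran the other way at -0.868 with bsf, and scu, a subunit of mitochondrial RNase P, at -0.569. Myc, a growth regulator, had 0.802 with bsf and 0.901 with Lon. Its levels were 24.8 and 22.5 TPM in control replicates 5 and 8 and between 1.71 and 2.23 TPM in the other control libraries. In TFAM RNAi Myc ran from 0.761 TPM in replicate 3 to 25.8 TPM in replicate 5, the libraries that were also lowest and highest for bsf and Lon. ncm, a gene flanking bsf, likewise had its highest control levels in replicates 5 and 8, at 19.3 and 16.0 TPM. How far this variation extends over all genes was not tested.

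Genes beside the 10 on the chromosome were also read. Of 18 tested flanking genes, 6 were called lower and 1, CG6126 beside mtSSB, higher, where 13.8% and 5.75% of all genes tested were. The genes on either side of TFAM were both lower. CG5191 went from 10.8 ± 1.89 to 1.92 ± 0.474 TPM (limma adjusted p = 5.09e-07) without overlap, and CG5412 from 33.7 ± 4.02 to 27.1 ± 3.01 TPM (limma adjusted p = 0.0454). CG5104 beside mTerf3 went from 46.6 ± 11.1 to 20.8 ± 3.14 TPM (limma adjusted p = 1.83e-04), Arpc1 and Polr2C beside PolG2 had log2 fold changes of -0.61 and -0.45, and BNIP3 beside mTerf3 had -0.50. Of the 5 genes overlapping one of the 10, CG9372 was called lower and 0 were called higher.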
